A study of Mus musculus with 9 samples.

Results

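Monocytes that leave the blood and enter an injured retina carry a set of genes. Resting retina holds some of these at low levels or not at all, and others, such as Gpnmb and Spp1, at higher ones. This account follows 10 genes of that set, of 48587 genes listed, across all 9 samples of a mouse model of retinal vein occlusion (RVO): Ccr2, Lyz2, Ms4a7, Cd14, Cd68, Adgre1, Lgals3, Gpnmb, Spp1 and Arg1. They were picked by name from knowledge of these cells. Their counts played no part in that rule, but earlier results of the same samples were known, and Lgals3 and Arg1 also belong to the genes that the study itself chose as most increased on these samples, so their direction is not independent evidence.

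All mice were C57BL/6J and 12 weeks old. In RVO eyes, veins were closed with a laser after eosin Y had been injected to sensitize the tissue. Control eyes, the other eye of each RVO mouse, received the laser between the vessels under the same eosin Y, while untreated eyes received neither. Retinas were pooled by 6 per sample, at d2 in both laser groups, so n = 3 pools per group throughout. RVO and control eyes thus share the laser burn and the sensitizer.

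Monocytes are drawn from blood into tissue by chemokines, chiefly Ccl2, which acts through the receptor Ccr2. In the tissue they become macrophages, which take up debris by phagocytosis, break it down in lysosomes and release proteins that act on matrix and vessels. The retina has macrophages of its own, the microglia, and several of the 10 genes, such as Cd68 and Adgre1, are made by both, while Lyz2 and Cd14 are also made by neutrophils. In pooled retinas, more cells of a type and more RNA per cell cannot be told apart.

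Total counts were 21022997 to 28993921 in RVO eyes, 18897218 to 23419497 in control eyes and 12377572 to 15245869 in untreated eyes, so weakly expressed genes were measured least precisely in untreated eyes. Levels are given as CPM, counts relative to the library total after scaling by edgeR's TMM factors. Replicates are separate pools and RVO replicate 2 stood apart from the other RVO pools. Its summed lens markers reached 5659 CPM against 187 and 496 CPM, and its pigment cell markers 1010 CPM against 485 and 670 CPM. Control replicate 1 also held many lens transcripts, at 2915 CPM against 378 and 213 CPM in the other control pools. Results that turn on these pools are given with and without them.

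Upstream sequence could be read for 7 of the 10 genes from RefSeq (GRCm38.p6). The bases before the start of Cd68, Spp1, Lgals3 and Gpnmb are shown. The first 3 of these genes rose from control to RVO eyes and were the only ones of the 7 with a motif match. Gpnmb did not pass there, departed in a single pool and held no match. Lyz2 also rose from control to RVO eyes but held no match and is not shown. A link between motifs and the rise was not tested. Capitals mark motif matches, on either strand.

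Cd68, chr11:69666171-69666420, minus strand: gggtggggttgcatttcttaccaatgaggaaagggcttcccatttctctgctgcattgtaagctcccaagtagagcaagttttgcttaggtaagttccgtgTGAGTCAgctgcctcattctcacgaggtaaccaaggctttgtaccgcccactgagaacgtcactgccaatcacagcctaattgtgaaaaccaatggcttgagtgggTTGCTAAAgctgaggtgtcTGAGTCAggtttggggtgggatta

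Spp1, chr5:104434861-104435110, plus strand: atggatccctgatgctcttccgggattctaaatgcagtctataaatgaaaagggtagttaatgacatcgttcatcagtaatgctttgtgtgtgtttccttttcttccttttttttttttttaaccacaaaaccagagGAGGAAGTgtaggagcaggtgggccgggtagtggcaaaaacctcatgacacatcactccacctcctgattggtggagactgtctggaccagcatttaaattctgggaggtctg

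Lgals3, chr14:47373610-47373812, plus strand: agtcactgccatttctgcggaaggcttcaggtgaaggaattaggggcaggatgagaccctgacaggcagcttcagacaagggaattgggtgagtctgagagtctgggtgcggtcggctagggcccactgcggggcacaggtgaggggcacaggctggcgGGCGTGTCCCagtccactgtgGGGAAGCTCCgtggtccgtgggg

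Gpnmb, chr6:49036268-49036517, plus strand: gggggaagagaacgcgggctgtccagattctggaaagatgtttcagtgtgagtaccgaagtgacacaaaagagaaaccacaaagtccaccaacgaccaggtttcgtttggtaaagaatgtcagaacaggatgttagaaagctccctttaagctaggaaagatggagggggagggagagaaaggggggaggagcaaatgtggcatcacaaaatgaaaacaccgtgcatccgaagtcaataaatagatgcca

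All 250 bases before each start were searched, those in annotated exons included, for 7 motifs, 1 of them in a strict and a looser form. Only bases outside annotated exons are printed. Cd68 held the AP-1 motif TGANTCA at 2 places, with first bases at -149 and -24 from the start, and the C/EBP motif TTGCNNAA at -43. Spp1 held the PU.1 motif GAGGAAGT at -113, PU.1 being a factor that macrophages need. Of 32851 promoters, 6.75% held the AP-1 motif, 9.56% the C/EBP motif and 2.44% the PU.1 motif. The NF-kB consensus, found in 3.90% of promoters, matched none of the 7 genes. A looser NF-kB pattern, which was searched first, matched Lgals3 at 2 places (-91 and -70, in capitals above) and 17.6% of all promoters, so the match in Lgals3 depends on the pattern chosen. The E-box CACGTG (6.02% of promoters), the hypoxia response element ACGTG, which lies within it (16.6%), and the STAT motif TTCNNNGAA (7.02%) matched none of the 7. A match says only that these letters are present.

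Against untreated eyes, 8 of the 10 genes rose in RVO eyes and 8 rose in control eyes, and none fell. Ccr2, among these 8, was near 0 in untreated pools. It had enough counts to be tested only through the laser pools and could be called only higher. Calls were made with the quasi-likelihood test of edgeR at a Benjamini-Hochberg adjusted p under 0.01 over all genes tested. Of all genes, 27.4% were higher and 24.6% lower in RVO eyes, and 27.2% were higher and 25.2% lower in control eyes. For the 10 genes the median log2 fold change was 2.84 in RVO and 1.63 in control eyes, against 0.0081 and 0.013 over all genes tested. Both comparisons use the same untreated pools. Every RVO pool exceeded every untreated pool for 10 of 10 genes, where 37.8% of all genes behaved so, and every control pool did for 9 of 10, where 36.8% of all genes did.

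**Figure D1:**
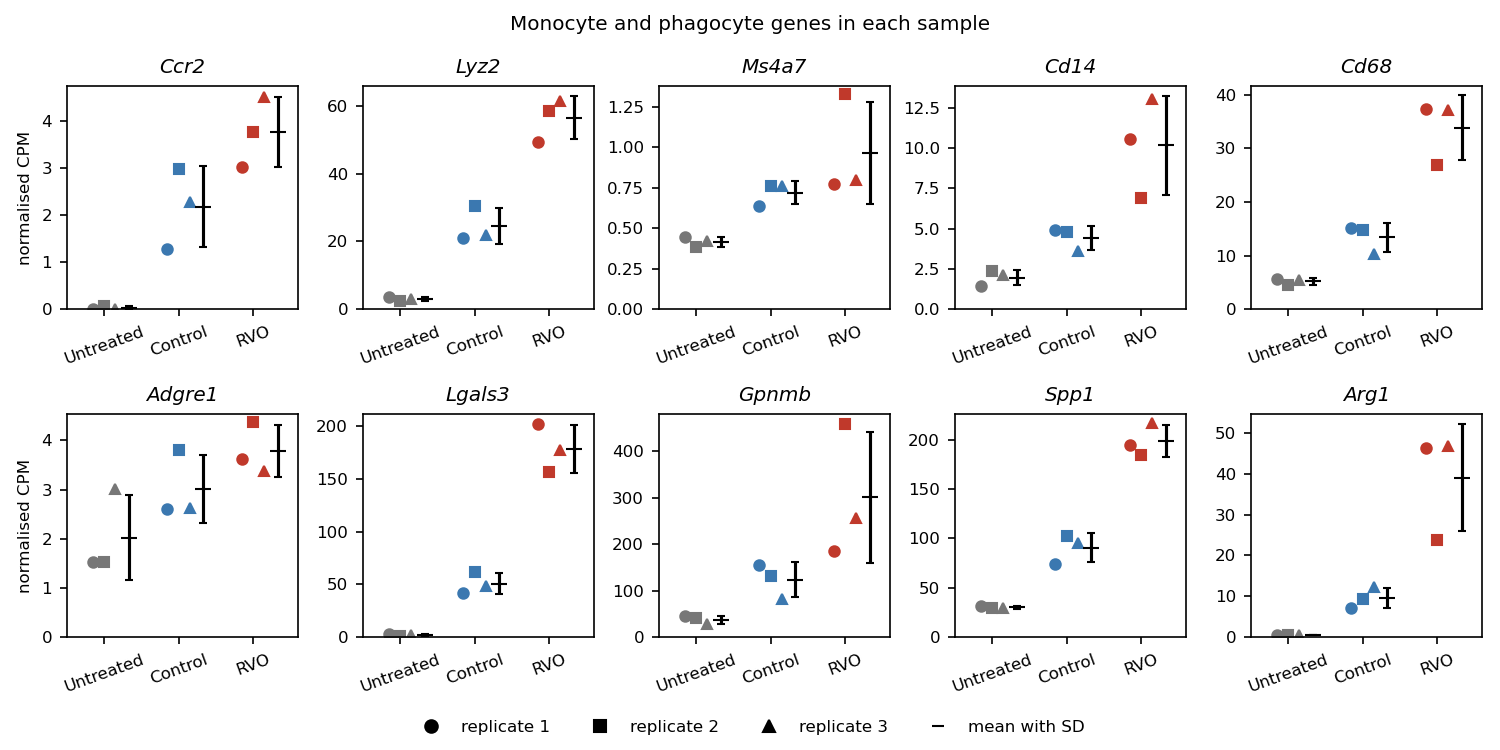
Normalised CPM (vertical axes, each from 0) of the 10 genes in untreated, control and RVO pools, with one point per pool shaped by replicate number and the mean with SD beside each group. RVO pools lie highest for every gene but Adgre1, and only narrowly so for Ms4a7. RVO replicate 2 (square) leaves the other RVO pools upward for Gpnmb and Ms4a7 and downward for Cd14, Cd68 and Arg1.

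Ccr2, the receptor that draws classical monocytes out of blood, was close to absent in untreated eyes. It had 0, 1 and 0 counts there, 28, 59 and 54 counts in control eyes and 94, 88 and 102 counts in RVO eyes. The 1 count in untreated eyes has an exact Poisson interval of 0.025 to 5.57 at 95%, which covers counting error only. In CPM it reached 1.28, 3.00 and 2.28 in control eyes and 3.03, 3.78 and 4.52 in RVO eyes, so that both laser groups lay apart from untreated eyes and narrowly apart from each other. Against a floor of 3 counts in each untreated pool, Ccr2 was at least 16.0-fold higher in RVO eyes (edgeR, Benjamini-Hochberg adjusted p = 3.70e-05) and at least 9.25-fold higher in control eyes (adjusted p = 1.45e-05). Between RVO and control eyes the log2 fold change was 0.79 (standard error 0.31, edgeR adjusted p = 0.0856), which did not pass.

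The ligands of Ccr2 rose in both laser groups. Ccl2 had 0.0532 ± 0.0471 CPM (SD, n = 3) in untreated eyes and reached 6.18 ± 2.73 CPM after control laser treatment and 22.2 ± 4.89 CPM after RVO. Its level was thus at least 94.1-fold higher after RVO and at least 26.2-fold higher after control laser treatment. Ccl7, a related ligand, had no counts in any untreated pool, and its bounds were at least 23.6-fold higher for RVO and at least 8.98-fold higher for control eyes. Ccl12 stood at nearly the same level in both laser groups, with 3.45 ± 1.60 CPM after RVO and 3.13 ± 0.217 CPM after control treatment against 0.264 ± 0.103 CPM in untreated eyes. None of the 3 ligands passed between RVO and control eyes, where the log2 fold changes were 1.85 for Ccl2 (standard error 0.35, edgeR adjusted p = 0.0126), 1.40 for Ccl7 and 0.13 for Ccl12.

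Cd68, a glycoprotein of lysosomes and endosomes in phagocytes, had 5.73, 4.51 and 5.40 CPM in untreated eyes, 15.1, 14.8 and 10.3 CPM in control eyes and 37.4, 26.9 and 37.3 CPM in RVO eyes. The groups did not overlap at any step. Compared with untreated eyes, Cd68 rose 6.46-fold in RVO eyes (log2 fold change 2.69, standard error 0.17, edgeR adjusted p = 1.31e-05) and by a log2 fold change of 1.34 in control eyes (adjusted p = 1.63e-05). It also rose 2.52-fold from control to RVO eyes (adjusted p = 0.00906).

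The surface markers Adgre1, which encodes the F4/80 antigen of macrophages, and Ms4a7, a membrane protein of macrophages that microglia hold at low levels, had the smallest fold changes of the 10 against untreated eyes. Adgre1 had 1.52, 1.53 and 3.02 CPM in untreated eyes, 2.6, 3.81 and 2.62 CPM in control eyes and 3.61, 4.38 and 3.37 CPM in RVO eyes. Untreated replicate 3 lay within the range of the control pools. Its log2 fold change against untreated eyes was 0.87 in RVO eyes (standard error 0.29, edgeR adjusted p = 0.0265) and 0.52 in control eyes (adjusted p = 0.123), neither of which passed. Without untreated replicate 3 the value in RVO eyes was 1.29 and passed (adjusted p = 0.00513, with a range of 0.00513 to 0.106 over all alternatives).

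Ms4a7 rested on few reads, with 5, 5 and 6 counts in untreated eyes, 14, 15 and 18 counts in control eyes and 24, 31 and 18 counts in RVO eyes. In CPM the untreated pools lay between 0.38 and 0.45, the control pools between 0.64 and 0.76 and the RVO pools between 0.77 and 1.33. The order of the groups was that of Cd68, but the log2 fold changes of 1.18 in RVO eyes (standard error 0.36, edgeR adjusted p = 0.0196) and 0.76 in control eyes (adjusted p = 0.0792) did not pass. With libraries scaled by their size only, the value in RVO eyes was 1.39 and passed (adjusted p = 0.00814, with a range of 0.00814 to 0.0818 over all alternatives).

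Lyz2, the lysozyme of monocytes, macrophages and neutrophils, had 3.67, 2.45 and 3.02 CPM in untreated eyes, 20.9, 30.5 and 22.0 CPM in control eyes and 49.3, 58.5 and 61.5 CPM in RVO eyes. The pools of each group lay apart from those of the next. Lyz2 rose 18.5-fold in RVO eyes (log2 fold change 4.21, standard error 0.16, edgeR adjusted p = 2.11e-06) and 7.98-fold in control eyes (adjusted p = 1.28e-07). From control to RVO eyes it rose 2.30-fold (adjusted p = 0.00817). Of its 50-base stretches, 15.4% are identical in the paralog Lyz1, so a small part of its reads could not be assigned to it with certainty.

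Cd14, which presents bacterial lipopolysaccharide and debris signals to the receptor Tlr4, had 1.43, 2.37 and 2.10 CPM in untreated eyes, 4.93, 4.77 and 3.59 CPM in control eyes and 10.6, 6.91 and 13.04 CPM in RVO eyes. It rose 5.08-fold in RVO eyes (log2 fold change 2.34, standard error 0.30, edgeR adjusted p = 2.47e-04) and 2.19-fold in control eyes (adjusted p = 6.21e-04). RVO replicate 2 was the lowest RVO pool, yet above every control pool. Between RVO and control eyes the log2 fold change of 1.20 (standard error 0.26, adjusted p = 0.0151) did not pass, whereas without RVO replicate 2 it was 1.39 and passed (adjusted p = 1.43e-04, with a range of 1.24e-04 to 0.0642 over all alternatives). Its partner Tlr4 rose in RVO eyes, by a log2 fold change of 2.06 (adjusted p = 3.40e-04), and Ly96, the other part of that receptor complex, did not pass, at 1.53 ± 0.608 CPM after RVO, 0.728 ± 0.136 CPM after control treatment and 1.09 ± 0.399 CPM without treatment.

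Lgals3, a sugar-binding lectin (galectin-3) of activated phagocytes, had 2.95, 1.38 and 1.68 CPM in untreated eyes, 42.2, 61.5 and 48.2 CPM in control eyes and 201, 156 and 177 CPM in RVO eyes. It rose 89.9-fold in RVO eyes (log2 fold change 6.49, standard error 0.23, edgeR adjusted p = 1.38e-06), 25.5-fold in control eyes (adjusted p = 1.69e-08) and 3.51-fold from control to RVO eyes (adjusted p = 0.00459). Its binding partner Lgals3bp also rose in RVO and in control eyes, from 20.01 ± 1.27 CPM in untreated eyes to 61.6 ± 7.81 CPM in control and 112 ± 17.0 CPM in RVO eyes.

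Arg1, the arginase that competes with nitric oxide synthase for arginine, moved in the same order. It had 0.45, 0.46 and 0.56 CPM in untreated eyes, 7.21, 9.39 and 12.2 CPM in control eyes and 46.4, 23.9 and 46.8 CPM in RVO eyes. RVO replicate 2 again was the lowest RVO pool and again lay above every control pool. Arg1 rose 77.7-fold in RVO eyes (log2 fold change 6.28, standard error 0.38, edgeR adjusted p = 1.03e-05), 19.0-fold in control eyes (adjusted p = 1.89e-07) and 4.06-fold from control to RVO eyes (adjusted p = 0.00928). The other arginase, Arg2, had 12.4 ± 1.07 CPM in RVO eyes and 15.8 ± 0.214 CPM in untreated eyes and did not pass. Nos2, the inducible nitric oxide synthase, rose in RVO eyes to 2.06 ± 0.433 CPM from 0.459 ± 0.277 CPM (log2 fold change 2.19, adjusted p = 0.00221). Odc1, which turns the product of arginase into polyamines, fell in control eyes (log2 fold change -0.47, adjusted p = 6.70e-05) and had 109 ± 24.5 CPM in RVO against 91.2 ± 9.72 CPM in untreated eyes.

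Spp1 encodes osteopontin, a secreted matrix protein that some retinal neurons also make, and its level in untreated eyes was already high. It had 31.8, 29.2 and 29.9 CPM in untreated eyes, 74.1, 102 and 95.6 CPM in control eyes and 195, 185 and 217 CPM in RVO eyes. By the ratio of highest to lowest pool, its spread was the smallest of the 10 genes in RVO eyes (1.17) and in untreated eyes (1.09). Spp1 rose 6.51-fold in RVO eyes (log2 fold change 2.70, standard error 0.09, edgeR adjusted p = 1.28e-06), 2.95-fold in control eyes (adjusted p = 2.11e-07) and 2.19-fold from control to RVO eyes (adjusted p = 0.00672). Its receptor Cd44 rose with it, from 14.0 ± 1.90 CPM to 93.9 ± 18.9 CPM and 217 ± 34.6 CPM, and passed in all 3 comparisons. The provisional transcript Gm42793 overlaps Spp1 on the same strand and shares 11.6% of its 50-base stretches.

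Gpnmb, a membrane glycoprotein of lipid-laden phagocytes and of pigment cells, had 44.7, 40.3 and 28.1 CPM in untreated eyes, 156, 131 and 82.8 CPM in control eyes and 186, 459 and 256 CPM in RVO eyes. The groups did not overlap, but RVO replicate 2 lay far above the other RVO pools. Gpnmb rose 7.92-fold in RVO eyes (log2 fold change 2.98, standard error 0.33, edgeR adjusted p = 1.43e-04) and 3.25-fold in control eyes (adjusted p = 1.15e-05). Between RVO and control eyes the log2 fold change of 1.28 (standard error 0.35, adjusted p = 0.0287) did not pass, and without RVO replicate 2 it was 0.82 (adjusted p = 0.0136, with a range of 0.00531 to 0.0960 over all alternatives).

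RVO replicate 2 was also the highest RVO pool for Dct, a melanosome gene. Dct had 113, 282 and 114 CPM in RVO eyes, 95.4, 71.3 and 38.1 CPM in control eyes and 87.1, 88.9 and 64.5 CPM in untreated eyes. The 10 pigment cell markers summed to 608 to 662 CPM in untreated, 531 to 597 CPM in control and 485 to 1010 CPM in RVO eyes. None of the 10 was at 0 in any pool. At an adjusted p under 0.01 none rose in RVO against untreated eyes, and Rpe65 fell. At an adjusted p under 0.05, 3 were higher and 1 lower, against 5635 and 5321 of all 16380 genes tested. Every RVO pool exceeded every untreated pool for 3 of the 10, against 37.8% of all genes. Their median log2 fold change was 0.84, against 0.0081 over all genes. With RVO replicate 2 left out, Gpnmb still had a log2 fold change of 2.57 in RVO against untreated eyes (edgeR adjusted p = 4.51e-09, with a range of 1.84e-11 to 0.00159 over all alternatives). Other lists stood high in RVO replicate 2 as well, at 268% of the RVO mean for lens, 154% for ganglion cell, 142% for microglia and 122% for Mueller cell markers. The part of pigment cells in the level of Gpnmb was not tested.

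**Figure D2:**
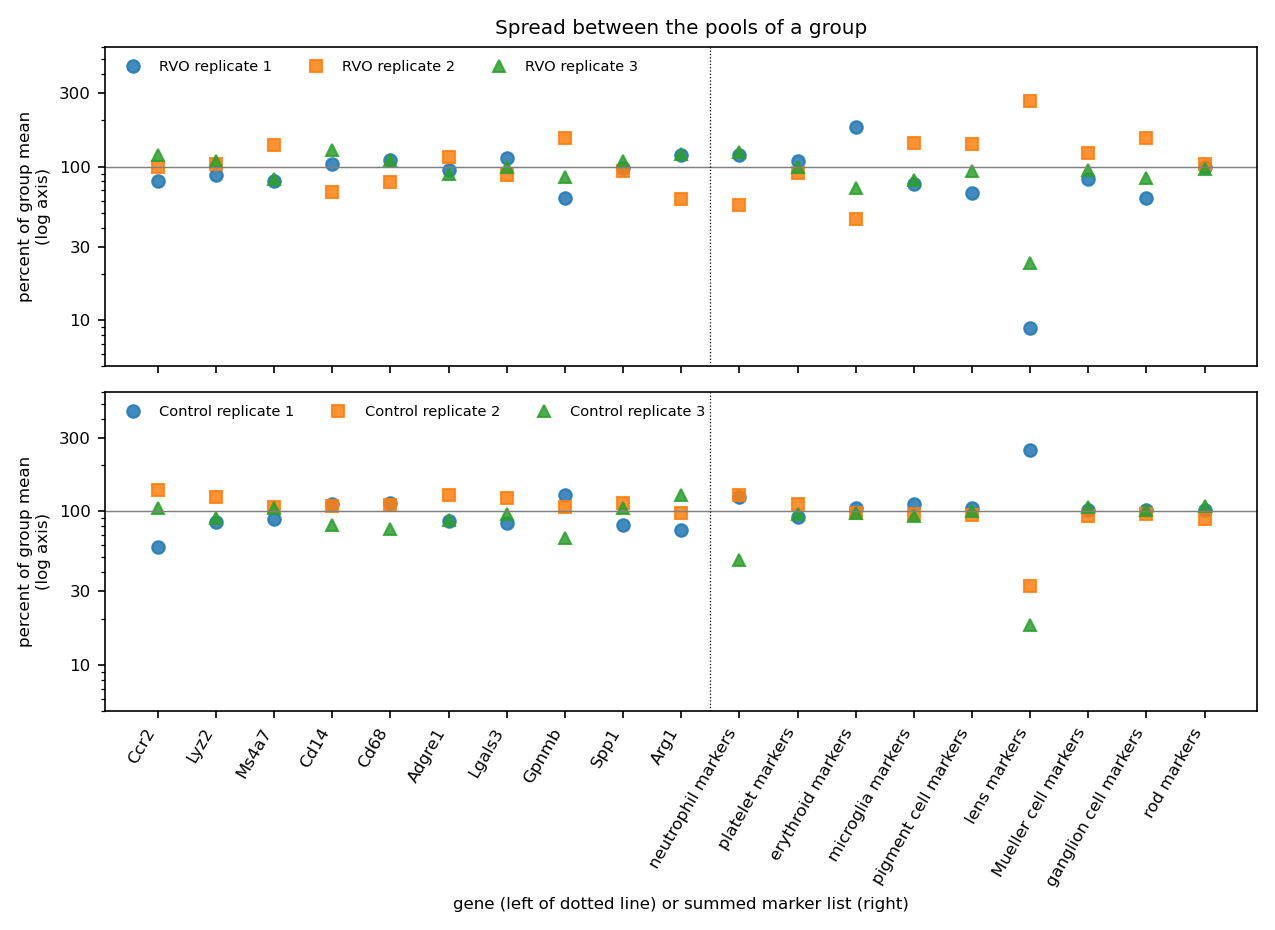
Level of each gene and of each summed marker list in the 3 pools of RVO eyes (top) and control eyes (bottom), as a percent of the group mean on a log axis. In RVO replicate 2 (square) Gpnmb stood at 153% of its group mean, as did pigment cell markers at 140%, while Cd14 stood at 67.9%, Arg1 at 61.2% and neutrophil markers at 56.1%.

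Between RVO and control eyes, which share laser and sensitizer, 5 of the 10 genes rose at an adjusted p under 0.01: Lgals3, Spp1, Lyz2, Cd68 and Arg1. Of all genes tested, 2.7% were higher and 0.634% lower. At an adjusted p under 0.05 the count was 7 of 10, with Cd14 and Gpnmb added, against 17.5% of all genes. Every RVO pool exceeded every control pool for 9 of 10 genes, against 27.3% of all genes, and Adgre1 was the exception. The median log2 fold change was 1.20, against 0.019 over all genes.

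The number of genes called in this comparison rested on single pools. It was 6 without RVO replicate 2, 1 (Lgals3) without RVO replicate 1, and 0 when RVO replicate 3 or any one of control replicates 1, 2 and 3 was left out, where edgeR still gave 7, 7, 9 and 7 genes at an unadjusted p under 0.05. All 10 log2 fold changes stayed above 0 in each of these fits. With DESeq2 on all pools it was 6. As control eyes were the other eyes of the RVO mice, the groups share animals, but it was not stated whether pools of the same number hold the same mice. With the replicate number as a block the count was 0 of 10, with 8 at an unadjusted p under 0.05. Over the 14 alternatives, Lgals3 kept its call in 9, with an adjusted p (edgeR or DESeq2) of up to 0.0375. Lyz2, Cd68, Spp1 and Arg1 each kept theirs in 8, with an adjusted p of up to 0.0565, 0.0538, 0.0505 and 0.0538.

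**Figure D3:**
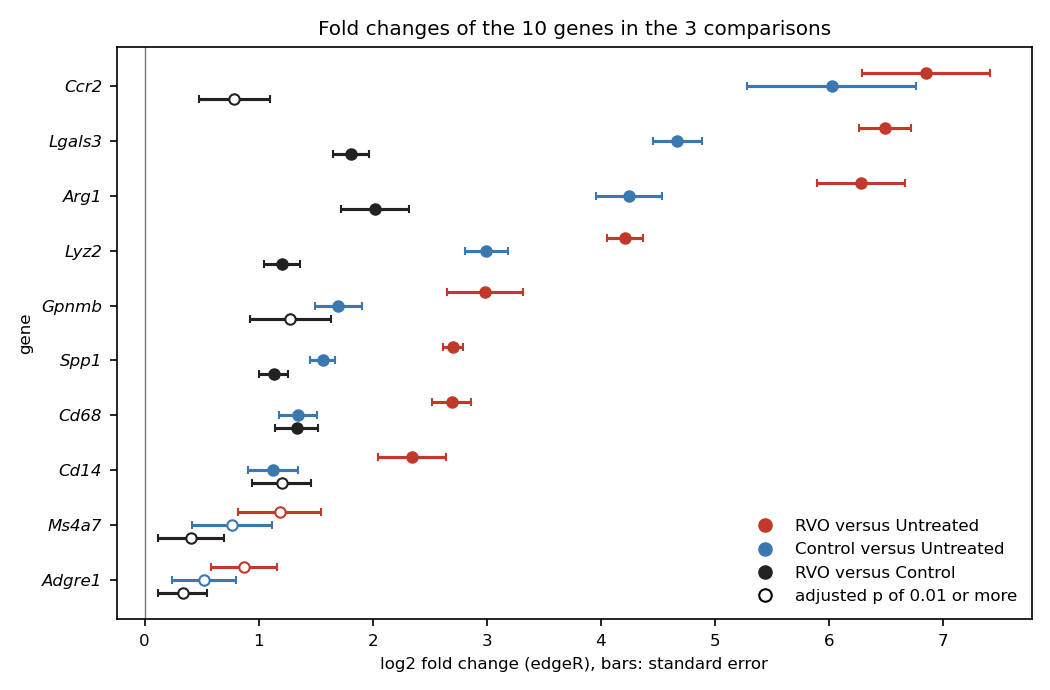
Log2 fold change from edgeR (horizontal axis) of each of the 10 genes in the 3 comparisons, with bars for the standard error and open circles where the adjusted p was 0.01 or more. Ccr2, Lgals3 and Arg1 have the largest values against untreated eyes, and Ms4a7 and Adgre1 are open throughout; the plotted value of Ccr2 depends on the prior count, and its bounds are given in the text.

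Compared per length of transcript, the order of the 10 mean levels was the same in RVO and control eyes and differed in untreated eyes. Spp1 was first in all groups, at 120.6 ± 9.95 RPKM in RVO, 55.0 ± 8.87 RPKM in control and 18.4 ± 0.832 RPKM in untreated eyes. Lgals3 was the sixth in untreated eyes, at 1.08 ± 0.450 RPKM, and the second in control eyes, at 27.3 ± 5.33 RPKM, and in RVO eyes, at 95.8 ± 12.3 RPKM. Gpnmb (46.2 ± 21.8 RPKM) and Lyz2 (42.9 ± 4.81 RPKM) followed in RVO eyes and did not differ beyond their spread. Ccr2 and Ms4a7 were the last in RVO eyes, at 0.559 ± 0.110 and 0.217 ± 0.0707 RPKM.

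Of 18 other genes of monocytes, 16 rose in RVO eyes and 11 of 13 tested rose in control eyes, with none lower. Of the 18, 5 had at most 3 counts in every untreated pool. Their median log2 fold change in RVO eyes was 3.40, or 2.53 with genes at the floor set to their bound. Clec4e, a receptor for products of dead cells, had no counts in untreated pools and its level was at least 13.9-fold higher in RVO eyes. Chil3, a chitinase-like protein of monocytes and macrophages, was at least 12.3-fold higher and Ms4a4c at least 5.36-fold higher. Vcan, which encodes versican, had 9.88 ± 0.344 CPM in RVO and 8.28 ± 1.63 CPM in untreated eyes and did not pass. Between RVO and control eyes 3 of 18 rose, against 2.7% of all genes, and these, named after their values were seen, were Tgfbi, F13a1 and Thbs1. At an adjusted p under 0.05 the count was 14 of 18, against 17.5% of all genes, with a median log2 fold change of 1.32.

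Genes of tissue macrophages were divided. Of 16 tested, 8 rose and 2 fell in RVO eyes, and 7 rose and 3 fell in control eyes, while none passed between the laser groups. Over all genes tested, 27.4% rose and 24.6% fell in RVO eyes, and 27.2% rose and 25.2% fell in control eyes. Cybb, the catalytic subunit of the phagocyte oxidase, rose to 3.87 ± 0.253 CPM in RVO eyes from 0.259 ± 0.174 CPM, and Fcgr2b, an inhibitory antibody receptor, rose to 6.56 ± 1.58 CPM from 1.16 ± 0.550 CPM. Csf1r, the receptor for the macrophage growth factor and a gene of microglia as well, fell from 38.0 ± 7.76 CPM to 25.7 ± 1.06 CPM in control and 19.0 ± 4.14 CPM in RVO eyes.

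Of 24 genes of phagocytosis and lysosomes tested, 14 rose in RVO eyes and 14 in control eyes, with 2 and 3 lower, and 4 of 25 rose from control to RVO eyes. For all genes tested the shares were 27.4% and 27.2% higher, 24.6% and 25.2% lower, and 2.7% higher from control to RVO eyes. Of the 24, 1 was at the floor in untreated eyes and could be called only higher against them. The scavenger receptor Msr1 rose from 0.236 ± 0.205 CPM to 4.01 ± 1.5 CPM and 8.33 ± 1.07 CPM. Cd63, a tetraspanin of lysosomes, rose from 11.3 ± 1.64 CPM to 71.0 ± 13.4 CPM and 154 ± 12.2 CPM and was one of the 4. Abca1, which exports cholesterol, fell in RVO eyes (log2 fold change -0.60, edgeR adjusted p = 0.00275). Among the 21 ligands, receptors and enzymes that work with the 10 genes, 16 rose in RVO eyes, and 12 of 20 tested rose in control eyes with 1 lower. In this list 2 genes were at the floor in untreated eyes and could be called only higher against them.

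**Figure D4:**
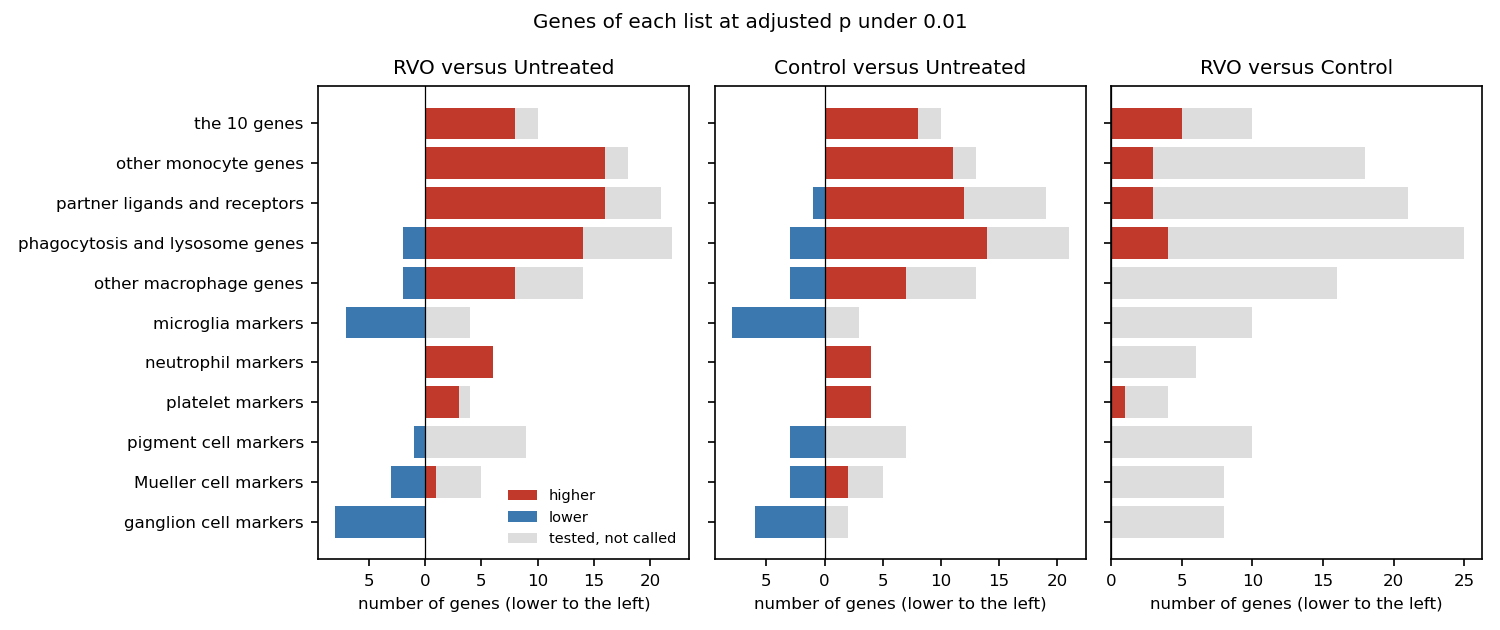
Number of genes in each list called higher (right, red), called lower (left, blue) or tested and not called (grey) at an adjusted p under 0.01 in the 3 comparisons. Monocyte and partner genes lie to the right and microglia and ganglion cell markers to the left in both comparisons with untreated eyes. From control to RVO eyes 5 of the 10 genes and at most 4 genes of any other list were called higher. This rise was not particular to the 10 genes. At an adjusted p under 0.05 (not drawn), 7 of the 10, 14 of 18 other monocyte genes and 6 of 6 neutrophil markers tested were higher.

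Markers of other blood and retinal cells moved with the groups. Microglia markers summed to 131 to 200 CPM in untreated, 79.9 to 96.7 CPM in control and 48.7 to 90.02 CPM in RVO eyes, with 7 of 11 lower in RVO and 8 of 11 lower in control eyes. Of all genes tested, 24.6% were lower in RVO and 25.2% in control eyes. P2ry12, which defines resting microglia, fell by 4.62 on the log2 scale in RVO eyes. Neutrophil markers summed to 0.612 to 1.68 CPM in untreated, 9.55 to 25.5 CPM in control and 48.9 to 108 CPM in RVO eyes. Only 6 of the 12 passed the filter on low counts, and as most were at 0 in untreated eyes, those 6 had to be high in RVO eyes to be tested. From control to RVO eyes none of 6 tested passed. At an adjusted p under 0.05 all 6 were higher, against 17.5% of all genes, with a median log2 fold change of 2.06. S100a9 was at least 131-fold higher in RVO eyes, while Elane was at 0 in every RVO and untreated pool. Of 12 neutrophil markers, 8 to 9 were at 0 in untreated, 2 to 3 in control and 1 to 3 in RVO pools.

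Lymphocyte markers summed to 0.701 to 1.45 CPM in untreated, 1.14 to 1.78 CPM in control and 1.89 to 2.19 CPM in RVO eyes, and 1 of 10 had enough counts to be tested between RVO and control eyes. Erythroid markers summed to 14.4 to 14.9, 28.9 to 31.5 and 50.3 to 199 CPM in the same order of groups, with 2 of 5 tested higher in RVO eyes, against 27.4% of all genes. Platelet markers summed to 6.19 to 7.57, 15.9 to 19.2 and 19.3 to 23.1 CPM, with 3 of 4 tested higher in RVO eyes. Of these, 2 were at the floor in untreated eyes and could be called only higher. Gp1bb, also tested, had 4.79 CPM in untreated, 8.53 CPM in control and 4.06 CPM in RVO eyes. The summed levels of both lists had the same order of groups as the 10 genes. Mueller cell markers summed to 5463 to 5782 CPM in untreated, 4518 to 5186 CPM in control and 2801 to 4134 CPM in RVO eyes, but did not fall as a set. Of the 8 markers, 2 rose and 3 fell in control eyes, and 1 rose and 3 fell in RVO eyes. Glul fell from 2552 CPM in untreated to 1264 CPM in control and 659 CPM in RVO eyes, while Clu went from 703 CPM to 1342 and 1049 CPM. Rod markers summed to 51600 to 56115 CPM in RVO, 62232 to 76442 CPM in control and 90843 to 93614 CPM in untreated eyes, and ganglion cell markers to 251 to 616, 941 to 999 and 1125 to 1190 CPM. The part of neutrophils, other blood cells, microglia and the lower share of neuronal RNA in the levels of the 10 genes was not tested.

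The genes with levels most similar to those of the 10 were sought among 15852 genes tested in all comparisons, by Pearson's r of log2(CPM + 1) over the 9 pools. The closest were Efemp2 and Cd63 to Lyz2 (r of 0.999 and 0.998), Gas2l1 and Vim to Lgals3 (0.999 and 0.998), Piezo1 and Ccl3 to Cd68 (0.998 and 0.997), Prr3 and Lmna to Arg1 (0.998 for each) and Hmgn1 to Spp1 (0.999). For Cd14 it was Thop1 (0.995) and for Gpnmb Ucp2 (0.987). Adgre1 and Ms4a7 had the loosest neighbours, Calcrl (0.942) and Cnn3 (0.963). These values describe 9 pools that fall into 3 groups, so any gene that follows the groups scores high.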

How the data were processed

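RNA was sequenced from 9 pools of 6 retinas (3 groups of 3). The authors mapped 50-base reads with STAR 2.5.2b to Gencode vM11 (GRCm38), counted them per gene with featureCounts (Subread 1.5.1) and deposited raw counts. Handling of multi-mapping reads and strand was not stated. In the table of 48679 names, 92 spike-ins were left out; each column was used.

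Counts were tested in R 4.3.3 with edgeR 4.0.16: filterByExpr, TMM scaling and the quasi-likelihood test, separately for each pair of groups. Benjamini-Hochberg adjustment ran over all genes tested, with a threshold of 0.01. Standard errors from edgeR are approximate. They are the absolute log2 fold change divided by the square root of the F statistic of the test. All 10 genes passed the filter in each comparison. Groups with at most 3 counts in each pool were set to that floor, giving lower bounds. RPKM used exon lengths of GENCODE vM21. Alternatives included DESeq2 1.42.0, other scalings and filters, a replicate block and each pool left out. The procedure was tested on simulated data.

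The genes, lists and tests were chosen with earlier results of these data known. Genes named were the 10, the 3 with the largest and 2 with the smallest change per list, set partners, and others said to be chosen later; not each was printed. Motifs were chosen during the work: a looser NF-kB pattern was searched first and then joined by the stricter consensus, after its matches had been seen, and both are reported. Correlations of the deviations of same-numbered pools lay between -0.19 and 0.13 and cannot decide whether replicate numbers pair the pools. Some of the most similar genes are not reported here.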

Additional observations from a re-analysis of the deposited data

How the results depend on the processing

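In RVO against control eyes, 5 of the 10 genes were called, but with the replicate block the count was 0 (edgeR, 8 at an unadjusted p under 0.05), and with single pools left out it ranged from 0 to 6. Whether same-numbered pools hold the fellow eyes of the same mice was not stated. The correlations of their deviations (-0.19, -0.17 and 0.11) cannot decide it, as other differences between pools enter them. RVO replicate 2 and control replicate 1, both high in lens transcripts, correlated at 0.29. The count of 0 with the block is therefore not set aside. The counts against untreated eyes kept to 8 to 10 in RVO and 8 in control eyes in every alternative, the block included. Of single values, all 138 in control eyes, 135 in RVO eyes against untreated eyes and 104 in RVO against control eyes kept their side of the threshold, 29 in the last comparison lost it, 5 and 7 gained it and none changed direction. Ms4a7 in control eyes gave no value in 2 fits, where it did not pass the filter. Over all genes, RVO against control eyes gave 456 higher and 107 lower, 690 and 202 with library size only, 1569 and 1740 without a filter, 1877 and 2161 with DESeq2, 1832 and 2021 with all 9 pools in one fit, 2956 and 2880 at an adjusted p under 0.05, 0 and 0 with the block (3611 and 3616 at an unadjusted p under 0.05), and 0 to 2942 and 0 to 3315 with single pools left out. Scaling by library size only gave 2484 instead of 4045 genes lower in control eyes. Ms4a7 had 5 to 31 counts per pool. The NF-kB match in Lgals3 was found with the looser pattern and not with the consensus, an alternative chosen after seeing the data.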
